A study of Homo sapiens with 8 samples.

Results

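The 6 genes described here are GRIN2B, SYT1, PCDH7, EFNA5, NAV3 and ZNF804A, long genes best known from neurons, measured here as nascent RNA in human colorectal cancer cells. They were selected on measured values, as long adhesion, synapse and axon guidance genes with large rises in the TOP2B-/- group of HCT116, without a numerical threshold. All 6 were found by symbol among the 18638 gene models of the count tables. Their HCT116 values are therefore a description and carry no test, and the DLD-1 comparison, which played no role in the choice, was tested.

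Nascent RNA was taken by factory-seq, in which nuclei are treated with DNase I and RNA held at sites of transcription is freed from them under native conditions by caspases. There were 8 libraries in 4 groups of 2. HCT116 controls were untreated cells with a degron (mAID) on TOP2A, and the other HCT116 group carried the same TOP2A-mAID allele together with the genotype TOP2B-/-. The titles of that group read as control, while its treatment field and the names of its count columns give auxin, which the treatment protocol sets at 500 µM for 14 h after 24 h of doxycycline. The TOP2B genotype, doxycycline and loss of TOP2A through auxin therefore cannot be told apart. DLD-1 cells carried mAID and mClover on POLR2A, which encodes the RPB1 subunit of RNA polymerase II, with a tetracycline-inducible OsTIR1. They were untreated, or given doxycycline for 24 h and then 500 µM auxin for 14 h, and auxin makes TIR1 mark a degron-tagged protein for destruction. The labels name neither the clone nor separate cultures behind the replicates, so p-values measure only the spread between these libraries, which may be technical. All titles read as asynchronous, and a sort for G1 cells is mentioned without saying for which libraries.

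At excitatory synapses, calcium entering the nerve terminal triggers the fusion of vesicles with the membrane, and the glutamate they release opens receptor channels on the next cell. Adhesion proteins hold the contact together, and guidance ligands such as ephrins steer the axon to it earlier in development. Type II topoisomerases pass one DNA duplex through another, which relieves the twisting stress that RNA polymerase builds up, and TOP2B is the form that non-dividing cells such as neurons keep. Long neuronal genes have been a subject of work on topoisomerases for this reason, and in non-neuronal cells many neuronal genes are held down by the repressor REST.

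Total counts were 32129400 to 36491540 reads per library in HCT116, 36906755 and 62626875 in the DLD-1 controls, and 10739622 and 14183633 after auxin. A background density was taken as the median reads per base over 3095 gene models that were silent in the controls of the other line. Spread over all gene models, it came to 0.273% to 3.06% of the reads in HCT116, 2.25% and 9.05% in the DLD-1 controls, and 39.5% and 59.7% after auxin, so the auxin libraries stand apart. In HCT116 the lowest and the highest of these shares were those of control 2 and TOP2B-/- 2. TOP2B itself gave 186 and 192 CPM (read counts scaled to library size, with totals adjusted by TMM) in the HCT116 controls and 135 and 132 in the TOP2B-/- libraries, a log2 fold change of -0.50 ± 0.04 (SE, n = 2 per group, edgeR quasi-likelihood test, Benjamini-Hochberg adjusted p = 0.0269). The labels do not say which part of TOP2B was deleted, and a count over the gene span does not test a small deletion. TOP2A gave 641 and 704 CPM in the controls and 634 in both TOP2B-/- libraries.

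The 6 genes lie on 4 chromosomes of GRCh38, and counting took in introns as well as exons. GRIN2B (chr12:13561476-13980088, minus strand, NM_000834) spans 419 kb. SYT1 (chr12:78863993-79452008, plus strand, NM_001135805) spans 588 kb, and NAV3 (chr12:77831289-78213012, plus strand, NM_001024383) spans 382 kb. PCDH7 (chr4:30720415-31146801, plus strand, NM_001173523) spans 426 kb, EFNA5 (chr5:107376889-107670895, minus strand, NM_001962) spans 294 kb, and ZNF804A (chr2:184598366-184939487, plus strand, NM_194250) spans 341 kb. These spans placed them at percentiles 96.3 to 99.0 of all gene models by length. No other gene model of the tables overlapped any of the 6. NAV3 and SYT1 were next to each other on the same strand with a gap of 651 kb, so they share a stretch of chromosome 12 and are not independent in position.

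The sequence before the start of each gene is shown because the 6 genes were all higher in one HCT116 group and their upstream sequences differ in base composition. RefSeq gave a window for all 6, with 3 starts for GRIN2B and 2 for NAV3, of which the start nearest to the counted model was used. The 4 printed here are those that lie wholly before the start of the counted model. Each is 250 bases of GRCh38.p14 read 5′ to 3′ toward the RefSeq start, and capitals mark matches to the motifs named afterwards.
GRIN2B, chr12:13980846-13981095, minus strand: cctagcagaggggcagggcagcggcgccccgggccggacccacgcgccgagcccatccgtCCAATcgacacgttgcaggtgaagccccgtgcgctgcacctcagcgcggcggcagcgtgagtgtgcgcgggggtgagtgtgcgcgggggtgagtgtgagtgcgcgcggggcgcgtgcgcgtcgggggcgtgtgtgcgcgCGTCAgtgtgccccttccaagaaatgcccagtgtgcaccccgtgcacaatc
PCDH7, chr4:30720119-30720368, plus strand: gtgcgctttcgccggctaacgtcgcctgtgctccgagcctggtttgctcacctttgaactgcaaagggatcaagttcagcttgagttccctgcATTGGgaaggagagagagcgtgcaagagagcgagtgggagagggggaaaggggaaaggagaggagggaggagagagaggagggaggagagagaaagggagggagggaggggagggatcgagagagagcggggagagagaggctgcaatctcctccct
NAV3, chr12:77830644-77830893, plus strand: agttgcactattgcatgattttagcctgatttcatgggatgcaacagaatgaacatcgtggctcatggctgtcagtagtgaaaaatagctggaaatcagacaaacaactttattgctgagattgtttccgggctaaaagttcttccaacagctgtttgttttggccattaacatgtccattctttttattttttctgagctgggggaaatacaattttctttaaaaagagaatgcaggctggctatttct
EFNA5, chr5:107670938-107671187, minus strand: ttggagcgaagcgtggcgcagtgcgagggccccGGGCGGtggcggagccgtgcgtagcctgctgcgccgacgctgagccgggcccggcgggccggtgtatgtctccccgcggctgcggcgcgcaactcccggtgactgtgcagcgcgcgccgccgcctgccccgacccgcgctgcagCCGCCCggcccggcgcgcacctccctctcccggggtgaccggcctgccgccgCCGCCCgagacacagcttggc

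G and C made up 79.6% of the EFNA5 window, 72.4% of that of GRIN2B and 59.6% of that of PCDH7, against 38.0% in NAV3 and a median of 58.0% over all 34943 RefSeq windows. The same windows held 41, 33, 10 and 2 CpG pairs, against a median of 11. The windows of ZNF804A and SYT1, which overlap their counted models, were 71.2% and 62.0% G and C. Searched on both strands, the CCAAT box stood once in the windows of ZNF804A, GRIN2B and PCDH7 and at 2 places in that of SYT1, and 32.0% of all windows hold it. The GC box (GGGCGG) stood at 3 places in EFNA5 and once in ZNF804A and SYT1, and 42.5% of all windows hold it. The core of the cAMP response element (TGACG), which the whole element also contains, stood once in GRIN2B, and 21.2% of all windows hold it. Of the REST element, the right arm (GGACAG) was found only in SYT1 among the 6 and in 17.2% of all windows. The left arm (TTCAGCACC) was in none of the 6 and in 0.289% of all windows. None of the 6 windows held the TATA box (TATAAA), present in 10.8% of all windows. The cAMP response element (TGACGTCA) was likewise absent from the 6 and present in 1.63% of all windows. The E-box (CACGTG) and the AP-1 site (TGANTCA), both absent from the 6, were present in 6.32% and 6.59% of all windows. The NAV3 window held no motif of the search, but its low G and C share and this count rest on the start chosen. The window of the other NAV3 start was 49.6% G and C and held the CCAAT box once. Those of the other GRIN2B starts were 63.6% and 64.4% G and C. Unlike the printed GRIN2B window, both held the GC box once and no CCAAT box. TGACG stood once in the one at 64.4% and was absent from the other. These matches are letters in a window and show no binding.

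In HCT116, all 6 genes were higher in both TOP2B-/- libraries than in either control, which was part of how they were chosen. With 2 libraries a group such separation is common, and 27.6% of the 15273 genes tested were higher without overlap and 27.6% lower. GRIN2B, a glutamate-binding subunit of the NMDA receptor, gave 28.3 and 18.4 CPM in the controls and 204.9 and 204.4 in the TOP2B-/- libraries. Its groups did not overlap, and the log2 fold change was 3.13 ± 0.22 (SE, n = 2 per group), or 8.78-fold. The TOP2B-/- libraries lay almost on each other, whereas the controls differed by 0.62 on the log2 scale.

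SYT1, the calcium sensor of synaptic vesicle release, gave 120.2 and 107.8 CPM in the controls and 440.9 and 422.5 in the TOP2B-/- libraries. These groups did not overlap, and the log2 fold change was 1.92 ± 0.07, or 3.79-fold. PCDH7, an adhesion protein of the non-clustered delta protocadherins, gave 108.9 and 96.7 CPM in the controls and 425.1 and 411.4 in the TOP2B-/- libraries. Both TOP2B-/- values lay far above both controls, with a log2 fold change of 2.02 ± 0.07, or 4.07-fold. The gap between replicates of these 2 genes was at most 0.17 on the log2 scale.

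EFNA5, a membrane-anchored ephrin ligand of Eph receptors, gave 41.0 and 34.2 CPM in the controls and 178.7 and 168.6 in the TOP2B-/- libraries. The groups did not overlap, and the log2 fold change was 2.21 ± 0.11, or 4.62-fold. NAV3, a neuron navigator that acts on the microtubules of growing cells, gave 46.2 and 42.9 CPM in the controls and 148.3 and 152.7 in the TOP2B-/- libraries. It had the smallest rise of the 6, with groups that did not overlap and a log2 fold change of 1.76 ± 0.06, or 3.38-fold.

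ZNF804A encodes a zinc finger protein whose locus is known from genetic studies of schizophrenia. It gave 236 and 129 reads (7.01 and 3.64 CPM) in the controls and 5235 and 4856 reads (151.3 and 148.1 CPM) in the TOP2B-/- libraries. The groups did not overlap, and its log2 fold change of 4.82 ± 0.30, or 28.2-fold, was the largest of the 6. ZNF804A stood at 1.31 and 4.35 times the background density in the controls, so part of its control reads were at that level, and at 39.7 and 16.6 times it in the TOP2B-/- libraries. With the background taken off every library its log2 fold change was 6.05. In these bulk libraries, a change in RNA per cell and a change in the share of cells that make it cannot be told apart.

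**Figure D1:**
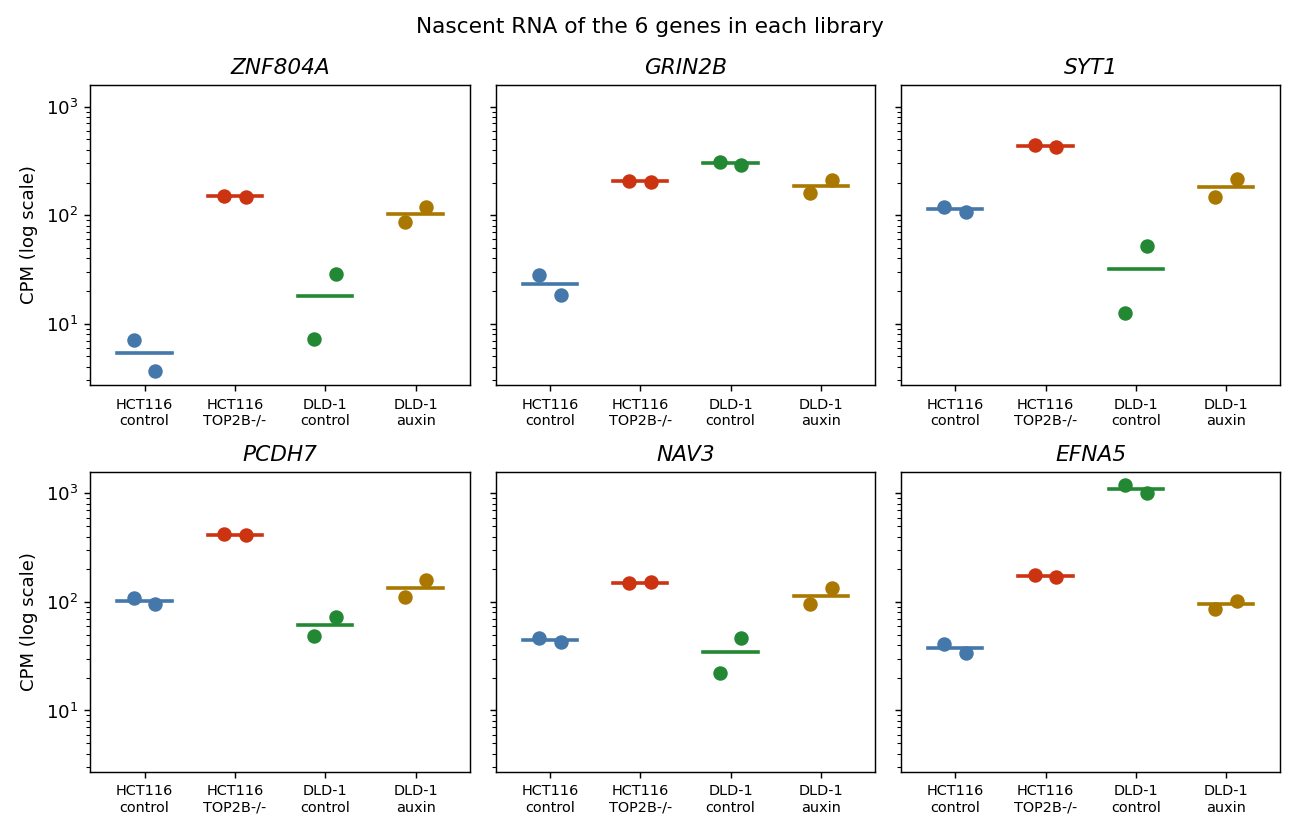
Nascent RNA of each gene in CPM (log scale), with 1 point per library and a bar at the mean of the 2 libraries of a group. In HCT116 the TOP2B-/- points lie above the control points for every gene, and in DLD-1 only GRIN2B and EFNA5 lie lower after auxin than in controls.

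Across all 15273 genes tested in HCT116, 521 (3.41%) were called at an adjusted p under 0.05 by edgeR, 268 higher (1.75%) and 253 lower (1.66%). The 6 genes were chosen on this contrast, so nothing is read from their count beside these shares. Ordered by log2 fold change from the top, ZNF804A was at place 4, GRIN2B at 15, EFNA5 at 43, PCDH7 at 60, SYT1 at 85 and NAV3 at 141. Their median log2 fold change was 2.12, against 0.03 over all genes tested.

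The medians of other tested genes also rose with length. The median log2 fold change was -0.19 for genes under 10 kb, 0.35 for the 612 others from 250 to 500 kb and 1.02 for the 254 others of at least 500 kb. Over the 866 other genes of at least 250 kb the median was 0.50, with 25 called higher (2.89%) and 7 lower (0.808%). Of these, 11 rose by at least as much as NAV3, of which 1 was called. That gene, named after its values were seen, is IL1RAPL1, a synaptic adhesion receptor of the interleukin 1 receptor family. It gave 205.2 and 174.5 CPM in the controls and 721.9 and 691.5 in the TOP2B-/- libraries. The largest rises of the 11, likewise named afterwards, were those of C10orf11 and DLC1. Their log2 fold changes were 3.69 ± 0.54 (edgeR adjusted p = 0.0557) and 3.37 ± 0.64 (edgeR adjusted p = 0.0841), neither called.

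**Figure D2:**
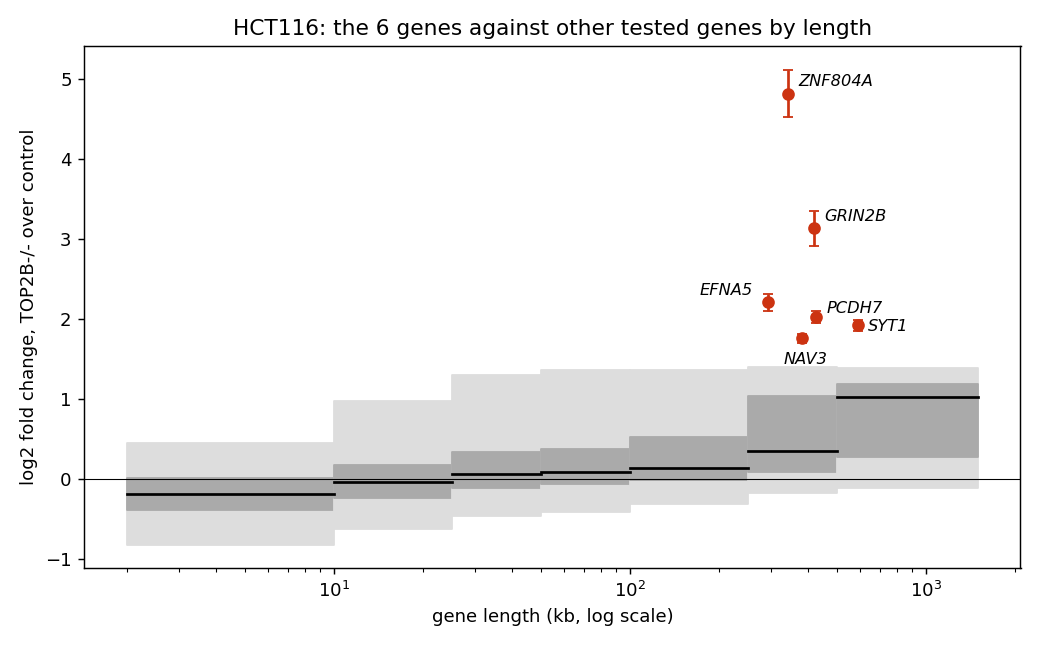
Log2 fold change of TOP2B-/- over control in HCT116 against gene length (kb, log scale), with the 6 genes as red points with their SE. Black lines are medians of the other tested genes in each length class, dark grey the quartiles and light grey the 5th to 95th percentiles, and the shortest and longest classes are open-ended. The 6 genes, chosen for large rises between these groups, lie above the light grey bands. The upper edges of these bands are 1.40 and 1.38 in the longest 2 classes.

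Taken library by library, the median over the 6 genes was between 1.98 and 2.26 on the log2 scale in all 4 pairings of a TOP2B-/- library with a control. The 6 genes were chosen for large rises between these groups, so high values in these pairings follow from that choice and are no test. The other genes of at least 250 kb were not chosen in this way. Their median ranged from -0.15 to 1.08 in the same pairings and was negative for TOP2B-/- 1 over control 1. Between the controls, the 6 genes were lower in control 2 by a median of -0.22 and the other long genes by -0.54. Between the TOP2B-/- libraries, the 6 genes differed by -0.08 to 0.04, while the median of the other long genes was 0.37 higher in TOP2B-/- 2. The background share moved in the same order as that median in both pairs, and its part in it was not tested.

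**Figure D3:**
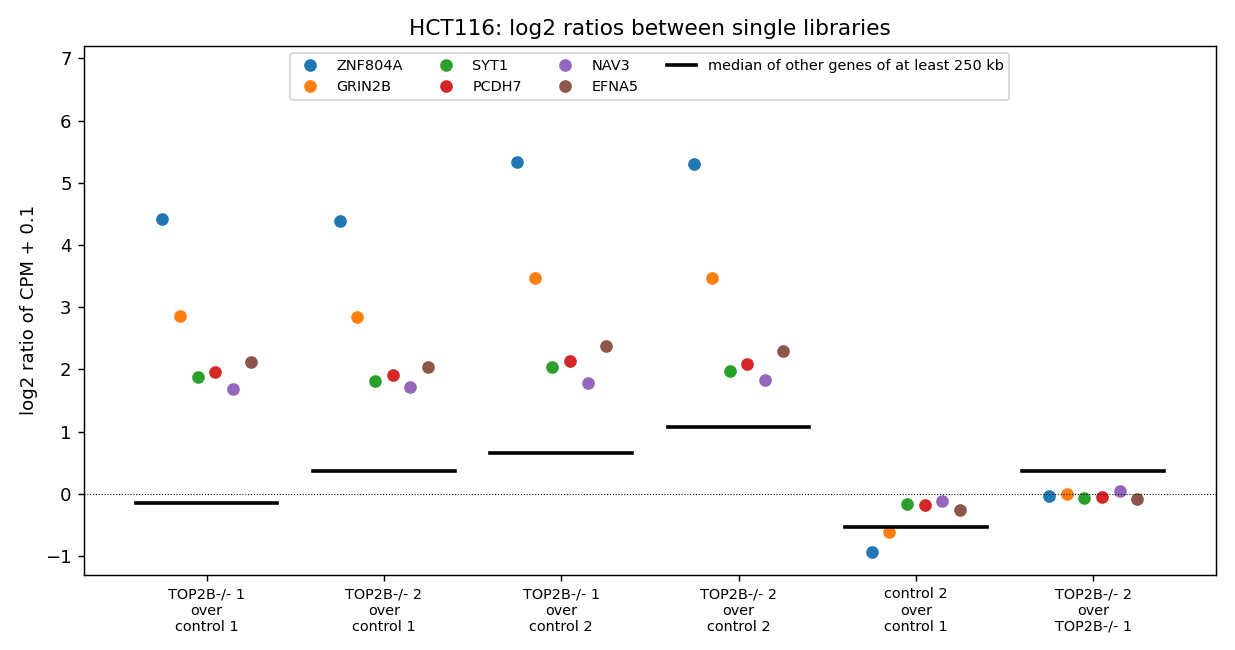
Log2 ratios of CPM + 0.1 between single HCT116 libraries, with 1 point per gene and a black line at the median of the other tested genes of at least 250 kb. In the 4 pairings between groups, the points, from genes chosen for their rise, lie between 1.68 and 5.34. The black line, from genes not chosen in this way, moves from -0.15 to 1.08.

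Per length, in RPKM (CPM per kb of counted length), the order of the HCT116 control levels was PCDH7 at 0.241 ± 0.020 (SD, n = 2), SYT1 at 0.194 ± 0.015, EFNA5 at 0.128 ± 0.016, NAV3 at 0.117 ± 0.006, GRIN2B at 0.056 ± 0.017 and ZNF804A at 0.016 ± 0.007. The values of EFNA5 and NAV3 overlapped, and those of the other neighbours did not. In the TOP2B-/- libraries PCDH7, SYT1 and EFNA5 kept these places at 0.981 ± 0.023, 0.734 ± 0.022 and 0.591 ± 0.024. GRIN2B followed at 0.489 ± 0.001, ZNF804A at 0.439 ± 0.007 and NAV3 at 0.394 ± 0.008, with no overlap between neighbours. The ratio of the highest to the lowest level narrowed from 15.4 in the controls to 2.49, since the 2 genes that were lowest in the controls rose most. Relative to the background density, the 6 genes lay at 1.31 to 92.5 times it in the controls and at 15.3 to 89.3 times it in the TOP2B-/- libraries. On this measure the groups overlapped for PCDH7, SYT1, NAV3 and EFNA5. The first 3 were higher in control 2, the library with the lowest background, than in either TOP2B-/- library. This measure divides by a background density that ran from 0.087 to 0.860 reads per kb over the HCT116 libraries. With the background subtracted instead, log2 fold changes were 2.09 for PCDH7, 1.995 for SYT1, 1.85 for NAV3 and 2.31 for EFNA5. These genes were chosen for their rise, so these values are a description.

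In DLD-1, all 6 genes lay near the background density after auxin. Their 12 values after auxin were 0.848 to 1.36 times that density, whereas the quartiles of the silent genes in these 2 libraries lay at 0.766 and 1.24. By share of reads, 4 of the 6 were called higher and 2 lower. None of the 6 overlapped between groups, and over all genes 44.7% were higher without overlap and 46.3% lower. The edgeR test called 11855 of 17625 genes (67.3%), 5678 higher (32.2%) and 6177 lower (35.0%), with a median of 1.44 on the log2 scale over the 6 genes against -0.06 over all genes. Over the 869 other genes of at least 250 kb the median was 1.82, with 58.9% called higher and 31.0% lower.

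EFNA5 was the most abundant of the 6 in the DLD-1 controls and fell most. It gave 1188 and 1016 CPM in the controls and 86.9 and 102.7 after auxin, or 57694 and 31050 reads against 1497 and 1413. The groups did not overlap, with a log2 fold change of -3.54 ± 0.22 (SE, n = 2 per group, edgeR adjusted p = 0.00421), lower in both auxin libraries. EFNA5 stood at 159 and 36.1 times the background in the controls and at 1.04 and 0.857 times it after auxin. It was called lower in every alternative tried.

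GRIN2B gave 308.0 and 291.1 CPM in the DLD-1 controls and 161.8 and 210.8 after auxin. Its groups did not overlap, and it fell with a log2 fold change of -0.68 ± 0.20 (edgeR adjusted p = 0.0344). It went from 29.0 and 7.27 times the background in the controls to 1.36 and 1.24 times it. The call was not stable. It was lost without any 1 of the 4 libraries (edgeR adjusted p = 0.0508 to 0.171), with RLE scaling (edgeR adjusted p = 0.0723), in DESeq2 (adjusted p = 0.0644), with a mean CPM of at least 5 (edgeR adjusted p = 0.319), in the fit over all 8 libraries (edgeR adjusted p = 0.139) and with scaling by library totals, where the log2 fold change was -0.04 (edgeR adjusted p = 0.871). With the background taken off, the log2 fold change of GRIN2B was -1.37 (edgeR adjusted p = 0.0113).

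PCDH7 gave 48.7 and 72.8 CPM in the DLD-1 controls and 109.9 and 157.9 after auxin, a log2 fold change of 1.14 ± 0.30 (edgeR adjusted p = 0.0288). NAV3 gave 22.2 and 46.5 CPM in the controls and 95.0 and 133.5 after auxin, a log2 fold change of 1.74 ± 0.42 (edgeR adjusted p = 0.0248). The groups did not overlap for either gene. Relative to the background both went the other way, PCDH7 from 4.50 and 1.79 times it in the controls to 0.906 and 0.908, and NAV3 from 2.29 and 1.27 times it to 0.875 and 0.858. With the background taken off, neither had any read left after auxin and both were called lower, with fitted log2 fold changes of -12.66 for PCDH7 and -11.03 for NAV3, whose size depends on the prior count.

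ZNF804A gave 7.29 and 28.8 CPM in the DLD-1 controls and 86.6 and 117.9 after auxin, with a log2 fold change of 2.51 ± 0.69 (edgeR adjusted p = 0.0315). SYT1 gave 12.6 and 51.8 CPM in the controls and 145.6 and 216.4 after auxin, with a log2 fold change of 2.49 ± 0.72 (edgeR adjusted p = 0.0342). The groups did not overlap, yet the controls of both genes differed from each other by 1.98 and 2.03 on the log2 scale. Both genes lay below the background density in all 4 DLD-1 libraries, at 0.842 to 0.892 times it for ZNF804A and 0.847 to 0.921 for SYT1, and no read of either was left once it was taken off. Of the 2904 silent genes tested in DLD-1, 77.8% were called higher, and their median difference was 2.51 on the log2 scale. None of the 4 higher calls was kept when either auxin library was left out, where EFNA5 alone of the 6 was called by edgeR. The log2 fold changes were then 2.82 and 2.28 for ZNF804A, 2.86 and 2.19 for SYT1, 2.07 and 1.48 for NAV3, and 1.48 and 0.86 for PCDH7. That of PCDH7 also moved with the controls, to 0.87 without control 1 and 1.46 without control 2.

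**Figure D4:**
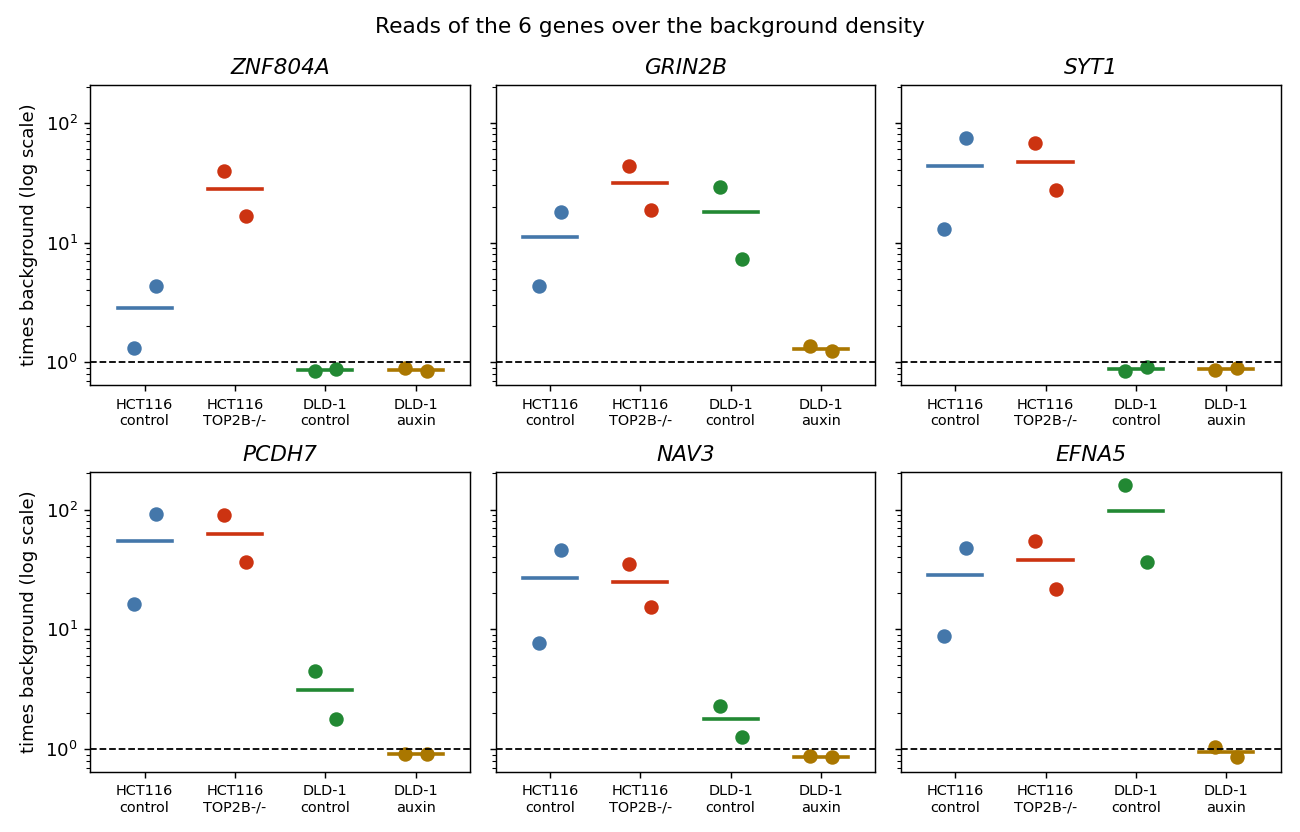
Reads of each gene over the background density (log scale), with 1 point per library, a bar at the group mean and a dashed line where a gene equals the background. All auxin points lie between 0.848 and 1.36, and ZNF804A and SYT1 lie below the line in the DLD-1 controls too.

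Per length, the DLD-1 controls gave EFNA5 3.75 ± 0.41 RPKM (SD, n = 2), GRIN2B 0.716 ± 0.028, PCDH7 0.143 ± 0.040, NAV3 0.090 ± 0.045, SYT1 0.055 ± 0.047 and ZNF804A 0.053 ± 0.045. Only EFNA5 and GRIN2B stood clear of their neighbours in this order. The highest and lowest levels differed 70.9-fold in the controls and 1.49-fold after auxin, when all 6 lay between 0.299 and 0.445 RPKM.

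Of 15 close relatives of the 6 genes, edgeR called 1 in HCT116, NAV2, with 5 at an unadjusted p under 0.05. DESeq2 called 4, namely NAV2 and GRIN2C higher and GRIN1 and PCDH1 lower, and the calls given next are those of edgeR. Of the other NMDA receptor subunits, log2 fold changes were 1.14 ± 1.41 for GRIN2A, 0.81 ± 0.11 for GRIN2C, 0.06 ± 0.06 for GRIN2D and -0.86 ± 0.26 for GRIN1, none called (edgeR adjusted p = 0.0533 to 0.667). SYT2, the closest relative of SYT1, had 1.11 ± 0.95 and ZNF804B had 1.12 ± 1.41, both with overlapping groups and not called. Among delta protocadherins, PCDH9 had 1.21 ± 1.36, PCDH11X 1.04 ± 1.52 and PCDH1 -0.45 ± 0.13, none called. EFNA1, EFNA2, EFNA3 and EFNA4 had -0.33, -0.44, -0.45 and 0.16, also not called. NAV2, the relative called higher, gave 74.0 to 86.2 CPM in the controls and 125.4 to 131.3 in the TOP2B-/- libraries, a log2 fold change of 0.68 ± 0.09 (edgeR adjusted p = 0.0486). NAV1 had 0.17 ± 0.05 and was not called.

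Over 12 lists of synapse, adhesion and axon guidance genes without the 6, 212 of 220 genes were tested in HCT116. Of these, 6 were called higher (2.83%) and 3 lower (1.42%), against 1.75% and 1.66% of all genes, and 203 did not pass the test. The list genes had a median of 0.45 on the log2 scale, with 150 above 0, while that of the 1941 tested silent genes was 0.72, with 0.773% called higher. No gene was called among 24 glutamate receptor subunits (median 1.09), 14 synaptotagmins (0.23), 5 delta protocadherins (1.04), 7 ephrins (-0.33), 14 Eph receptors (0.04) or the ZNF804 relative. Of the 65 genes tested in these lists, 8 had an unadjusted edgeR p under 0.05, and DESeq2 called 7.

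The 6 list genes called higher came from several groups. SEMA3E, a secreted semaphorin, went from 7.50 and 9.87 CPM to 24.2 and 25.7 (log2 fold change 1.52 ± 0.17, edgeR adjusted p = 0.0390). NRP1, a semaphorin and VEGF co-receptor, went from 41.2 and 41.3 CPM to 78.4 and 82.4 (0.96 ± 0.05, edgeR adjusted p = 0.0252). The others were NAV2, the active zone scaffold PCLO (0.63 ± 0.07), the adhesion molecule ALCAM (0.44 ± 0.05) and the postsynaptic scaffold HOMER1 (0.43 ± 0.04). Each rose less than NAV3, which had the smallest rise of the 6 genes and was itself chosen for a large one. Some list genes that were not called rose more than NAV3 (edgeR adjusted p = 0.194 to 0.635). These were NCAM1 (2.675 ± 1.221), SNAP25 (1.999 ± 0.660), PCDH17 (1.842 ± 1.837) and LRRTM3 (1.785 ± 1.95). The groups overlapped for LRRTM3 and not for the others.

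The 3 called lower were SEMA6A, a transmembrane semaphorin (-0.85 ± 0.06), the epithelial cadherin CDH1 (-0.69 ± 0.05) and SEMA3C, a secreted semaphorin (-0.54 ± 0.04). CDH1 went from 95.9 and 102.7 CPM in the controls to 61.1 and 62.4 in the TOP2B-/- libraries. These counts rested on single libraries. Without control 1, 79 list genes were called higher and 14 lower, and without either TOP2B-/- library no gene of the whole table was called by edgeR (2266 and 1286 genes at an unadjusted p under 0.05).

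In DLD-1, 157 of 219 tested list genes were called higher (71.7%) and 32 lower (14.6%), and the list median was 2.41 on the log2 scale, next to 2.51 for the silent genes. All 25 glutamate receptor subunits other than GRIN2B were higher by share of reads after auxin. The 7 ephrins were mixed, with 2 called higher, 2 lower and 3 not called, and a median of -0.78.

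Marker genes were read against the 3.41% of all tested genes that edgeR called, at which lists of this size hold few calls or none. In HCT116, 9 of 13 neuronal markers were tested and 0 were called by edgeR, by DESeq2 or at an unadjusted p under 0.05, and their summed level was 112 to 119 CPM in the controls and 104 to 114 in the TOP2B-/- libraries. The tubulin TUBB3 made up most of that sum, at 80.7 to 105.6 CPM in the controls and 68.6 to 83.6 in the TOP2B-/- libraries. Of the 9 tested, 7 had a log2 fold change above 0, with a median of 0.49, against 0.72 for the tested silent genes. Relative to the background, the markers differed widely over the 4 libraries. DCX, a marker of migrating neurons, was at 0.291 to 0.576 times it, and NEFL had 0 reads in a control. ELAVL3 was at 2.39 to 19.8 times it and MAPT at 1.30 to 16.6 times it. Of 12 colon epithelial markers, 9 were tested and 0 were called by edgeR, while 5 were called by DESeq2 and 5 had an unadjusted edgeR p under 0.05, with a summed level of 3945 to 5014 CPM in the controls and 2873 to 3271 in the TOP2B-/- libraries. The part of this difference in the results was not tested. Of 10 fibroblast, muscle and blood cell markers tested, 0 were called by edgeR and 1 by DESeq2, with 2 at an unadjusted edgeR p under 0.05. REST gave 63.0 and 69.9 CPM in the controls and 62.1 and 65.7 in the TOP2B-/- libraries, with overlapping groups (log2 fold change -0.06 ± 0.07, edgeR adjusted p = 0.668). Of 13 genes of the REST complex, 0 were called by edgeR and 1 by DESeq2, with 6 at an unadjusted edgeR p under 0.05. Of 6 topoisomerase genes, TOP1 (-0.72 ± 0.04) and TOP2B were called lower.

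Of 29 other genes tested within 1000 kb of the 6 in HCT116, 1 was called by edgeR (3.45%), a share near the 3.41% of all genes. Across the pair on chromosome 12, E2F7 lay 766 kb from NAV3 with a log2 fold change of -0.05 ± 0.05, and PAWR lay 140 kb from SYT1 with -0.04 ± 0.04. Within 1000 kb of GRIN2B, 20 genes were tested with a median of 0.04, and 1 of them was called, APOLD1, at 0.64 ± 0.04 (edgeR adjusted p = 0.0254). Its nearest neighbours EMP1 and ATF7IP had 0.03 ± 0.08 and 0.05 ± 0.04. PCDH7 had no other gene model within 1000 kb, and STIM2 and ARAP2, at 3695 and 4919 kb, were called higher at 0.42 ± 0.04 and 0.36 ± 0.04 (edgeR adjusted p = 0.0308 and 0.0351). FBXL17, 188 kb from EFNA5, had 0.35 ± 0.08 and was not called, and NUDT12 on the other side had 0.05 ± 0.10. NUP35 and FSIP2, on either side of ZNF804A at 1437 and 799 kb, had 0.07 ± 0.05 and 1.71 ± 1.32, neither called.

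The genes whose profile was most like the mean of the 6 were ranked by Pearson r over the 8 libraries, on log2 CPM centred within each cell line, among 15205 genes. The highest were PBX3 (r = 0.987), TMEM170B (0.984), GLTSCR1L (0.981), RAD51AP2 (0.980) and BANK1 (0.973). These points share library depth and background, so r is a description, and it takes no account of the size of a change. In HCT116 the log2 fold changes were 0.24 ± 0.10 for GLTSCR1L, 0.76 ± 0.18 for TMEM170B and 1.45 ± 0.23 for BANK1. RAD51AP2 had 4.95 ± 0.69 but only 2 and 1 reads in the controls. Of these genes edgeR called PBX3 (1.12 ± 0.07) and none of the others. All of them were picked for likeness to genes chosen on the HCT116 contrast. Their HCT116 changes and this call follow in part from that choice and are no test. PBX3, a homeodomain transcription factor gene of 220 kb, went from 97.3 and 87.6 CPM in the HCT116 controls to 204.6 and 197.8 in the TOP2B-/- libraries, and from 59.1 and 76.1 to 81.5 and 105.3 on auxin in DLD-1. The 6 genes themselves had r of 0.968 for PCDH7 and ZNF804A, 0.867 for NAV3 and 0.862 for GRIN2B. SYT1 had 0.773, and EFNA5, which fell most in DLD-1, had 0.280. Each of the 6 is part of the mean it was compared with, so these r are not comparable with those of the other genes.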

How the data were processed

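The deposited values are unnormalized read counts over the span of 18638 RefSeq gene models in hg38, which the authors gave as 1 table per cell line. Per the labels, STAR and DESeq2 were used, with versions, counting settings and use of strand not given in the sources used here. Gene spans were read with starts moved to 1-based positions. The authors' tables of changed genes hold their own fold changes, p-values and normalized signal and were not used. The paper supplied describes another experiment.

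The members, gene lists and tests were chosen with earlier results of these data known. The 4 libraries of a cell line were fitted together in edgeR 4.0.16 by quasi-likelihood (R 4.3.3, limma 3.58.1), with filterByExpr, TMM scaling, two-sided p-values and Benjamini-Hochberg adjustment at 0.05 over all genes tested, with 2 residual degrees of freedom. SE came from the quasi-likelihood F. The fit was tested on counts simulated with the same dispersion for every gene and no difference in background between libraries. That run does not test the calls made here. CPM used TMM-scaled totals and RPKM the counted length. Silent genes were models of at least 5000 bp in the lowest 20% by reads per kb in the other line's controls, ranked within each chromosome, without chromosome Y. ZNF804A and SYT1 are 2 of the 3095 used for HCT116.

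Alternatives were RLE scaling, library totals, DESeq2 1.42.0, 2 other count filters, a block for the replicate number, omission of single replicates, a fit over all 8 libraries and background-subtracted counts. Named genes were the 6, their closest relatives, their neighbours, up to 4 called genes of each list with the largest changes, the 5 most like the 6 by profile, and REST, TOP2A and TOP2B. Among the 6 genes in HCT116, read counts were lowest for ZNF804A in the controls, where part of the reads were at the background level.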

Additional observations from a re-analysis of the deposited data

How the results depend on the processing

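In HCT116, the rise of all 6 genes, for which they were chosen, kept its direction under every alternative. The alternatives rest on the same libraries as that choice, so this is a description and no test of the rise. The median log2 fold change was 1.94 to 2.22 when single replicates were left out (1.94 without control 2). The number of genes called in HCT116 moved far more. DESeq2 called 1849 of 18041 genes where edgeR called 521 of 15273, and edgeR called 1221 with a mean CPM of at least 5, 5 in a fit over all 8 libraries, 2371 with background-subtracted counts, and 0 to 2519 when single replicates were left out. With the replicate number as a replicate block, 0 genes were called (2177 at an unadjusted p under 0.05), and list genes fell to 0 higher and 0 lower. Deviations of same-numbered libraries correlated at -0.83 in HCT116 and 0.58 in DLD-1, and nothing in the labels says that numbers pair libraries. With crossed numbers, a setting chosen after seeing the data, 1808 genes were called, 13 list genes higher and 15 lower.

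List genes called higher in HCT116 numbered 6, against 13 in DESeq2, 13 with background-subtracted counts, 0 in the fit over all 8 libraries and 0 to 79 when single replicates were left out. List genes called lower numbered 3, against 5 with RLE scaling, 6 with library totals, 15 in DESeq2, 12 with a mean CPM of at least 5, 0 in the fit over all 8 libraries, 16 with background-subtracted counts and 0 to 14 when single replicates were left out. In DLD-1, genes called numbered 2393 to 12732 when single replicates were left out, against 11855, and members called numbered 1 to 5, against 6. With background-subtracted counts PCDH7 and NAV3 reversed to -12.66 and -11.03. Scaling DLD-1 by library totals moved the median of all genes from -0.06 to 0.57 and the share of calls that were higher from 47.9% to 69.1%. The replicate block left the 6 DLD-1 calls in place. The cause of these differences was not tested, except that leaving out libraries or genes changes what is tested. The ZNF804A control level in HCT116 rests on 236 and 129 reads. With the background taken off, 56 and 99 of these were left.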
